A study of Mus musculus with 65 samples.

Results

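Collagen genes were followed in primary neural stem cells grown from the subventricular zone of adult mice. The set held every protein-coding gene of the count table whose mouse GENCODE symbol reads Col, a number, a and a number, with Col1a1 left out, which gave 43 genes among 31057 features. All animals carried the iOSKM genotype, in which doxycycline switches on the reprogramming factors Oct4, Sox2, Klf4 and Myc, so the untreated controls carried it too. The labels do not name the promoter that drives it. Poly(A) RNA of 65 libraries was sequenced, and each replicate number within an age names 1 animal, of 4 old mice (25 months, 2 female and 2 male) and 5 young mice (3 to 4 months, 3 female and 2 male).

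Groups were defined by medium, hour, treatment and age, with 4 libraries a group in old and 5 in young cells. NSC medium contained EGF and bFGF, and differentiation was begun 18 h after plating by medium without these factors. Old cells with doxycycline at 2 µg per ml were sampled at 6, 18 and 48 h in NSC medium and at 6, 18 and 48 h of differentiation. Old untreated cells were sampled at 18 h in NSC medium and at 6, 18 and 48 h of differentiation. Young cells with doxycycline were sampled at 18 h in NSC medium, and young untreated cells at 18 h in NSC medium and at 6, 18 and 48 h of differentiation. No untreated group in NSC medium was analysed at 6 or 48 h, so changes with time in NSC medium were seen only under doxycycline. A comparison of 6 h of differentiation with 18 h in NSC medium differs in both medium and time. At equal labelled hours, differentiation cells had been plated 18 h longer than NSC cells if hours count from the change of medium. The labels do not settle this, so medium and time in culture cannot be told apart there either.

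Collagens are secreted or membrane-bound proteins in which 3 chains wind into a helix, and different chains combine in fixed ways. Fibrillar collagens build fibres, type IV chains form the mesh of basement membranes, type VI chains form beaded filaments at the cell surface, and FACIT collagens sit on the surface of fibrils. In the subventricular zone, neural stem cells contact a specialised basement membrane that extends from blood vessels. Chains are modified on prolines and lysines, folded with the help of the chaperone Hsp47 (Serpinh1), trimmed outside the cell and crosslinked.

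Depth ran from 56483730 to 116835539 counts per library with a median of 86693655. Levels are CPM, the counts of a gene scaled to a common library total with TMM factors across the 65 libraries. All 7 neural stem cell markers reached 1 CPM in every group. Of 7 fibroblast markers, 4 (Dcn, Lum, Dpt and Aldh1a2) lay under 0.1 CPM in every group, as did the pericyte markers Kcnj8 and Abcc9. Of the other fibroblast markers, Slc6a13 averaged at most 0.101 CPM and Twist1 at most 1.14 CPM in any group, while Fbln1 averaged 5.67 to 41.6 CPM. The rtTA transgene ran from 88.0 to 285 CPM in doxycycline libraries and from 80.9 to 257 CPM in untreated libraries. The 3 linker sequences listed for the cassette had at most 4 counts in any library, so its induction could not be read from them. In these bulk samples, fewer cells of a type and less RNA per cell cannot be told apart.

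The genes are set in the genome in ways that bear on how they are read. Col4a1 and Col4a2, the chains of the common basement membrane network, lie head to head on chromosome 8 with annotated starts 21 bases apart. Col6a1 and Col6a2 lie on the same strand of chromosome 10 with starts 102538 bases apart, while Col6a3 lies on chromosome 1. The promoter windows of these 5 genes (250 bases before to 50 after the start, RefSeq, GRCm38.p6) are shown because the type IV pair and the type VI genes gave the patterns described next. Capitals mark the CCAAT box (CCAAT or ATTGG), the GC box (GGGCGG or CCGCCC) and the AP-1 motif (TGANTCA), searched on both strands. For Col6a2, which has 2 windows listed, the one at the start used for the distance above is shown. The Col6a1 window is set on a RefSeq start inside the gene, not on the annotated start used for that distance.
Col4a1 (chr8:11312777-11313076, minus strand): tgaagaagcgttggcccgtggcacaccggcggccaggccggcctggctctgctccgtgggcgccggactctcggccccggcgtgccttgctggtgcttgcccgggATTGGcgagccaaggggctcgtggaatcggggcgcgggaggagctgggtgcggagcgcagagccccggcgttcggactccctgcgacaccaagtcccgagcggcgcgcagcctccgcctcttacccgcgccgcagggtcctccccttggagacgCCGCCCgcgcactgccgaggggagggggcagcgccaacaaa
Col4a2 (chr8:11312555-11312854, plus strand): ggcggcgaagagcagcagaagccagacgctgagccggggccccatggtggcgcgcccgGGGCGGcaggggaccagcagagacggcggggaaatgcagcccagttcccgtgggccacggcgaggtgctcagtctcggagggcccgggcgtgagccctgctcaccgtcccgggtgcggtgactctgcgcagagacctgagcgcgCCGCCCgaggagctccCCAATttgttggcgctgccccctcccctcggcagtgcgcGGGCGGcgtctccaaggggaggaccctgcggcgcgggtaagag
Col6a1 (chr10:76725995-76726294, minus strand): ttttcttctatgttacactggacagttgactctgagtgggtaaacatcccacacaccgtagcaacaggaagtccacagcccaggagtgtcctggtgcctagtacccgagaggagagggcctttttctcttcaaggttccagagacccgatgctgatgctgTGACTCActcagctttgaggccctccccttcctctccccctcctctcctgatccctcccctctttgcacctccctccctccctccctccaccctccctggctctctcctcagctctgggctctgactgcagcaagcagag
Col6a2 (chr10:76623581-76623880, minus strand): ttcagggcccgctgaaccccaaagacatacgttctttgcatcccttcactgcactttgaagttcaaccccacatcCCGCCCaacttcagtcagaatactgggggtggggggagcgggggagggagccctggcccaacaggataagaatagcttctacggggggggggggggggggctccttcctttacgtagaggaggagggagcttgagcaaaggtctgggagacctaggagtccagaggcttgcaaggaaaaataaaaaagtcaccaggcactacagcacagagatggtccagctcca
Col6a3 (chr1:90843922-90844221, minus strand): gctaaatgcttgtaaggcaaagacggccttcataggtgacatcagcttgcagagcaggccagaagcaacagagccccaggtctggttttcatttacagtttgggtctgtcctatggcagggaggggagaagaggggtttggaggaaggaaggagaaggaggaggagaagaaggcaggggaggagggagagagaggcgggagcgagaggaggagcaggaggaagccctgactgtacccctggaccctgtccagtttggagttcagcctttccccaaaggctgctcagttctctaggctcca

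The Col4a1 and Col4a2 windows overlapped by 78 bases and were GC-rich, at 74.0% and 73.7% G or C, with 37 and 33 CG dinucleotides. The Col6a1 window held 57.3% G or C and 3 CG dinucleotides, the Col6a2 window 56.7% and 6, and the Col6a3 window 56.3% and 3. RefSeq windows were matched for 35 collagen genes (38 windows), and 8 genes had none listed. A GC box was found in 60.5% of the collagen windows and 35.7% of all 32851 mouse windows, and a CCAAT box in 34.2% and 37.4%. The AP-1 motif was found in 1 collagen window, that of Col6a1, and in 7.81% of all windows. These matches are descriptions of the letters and show no binding.

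Of the 43 genes, 22 reached a mean of 5 CPM in at least 1 group, 8 peaked between 1 and 5 CPM, and 13 stayed under 1 CPM in every group. The last included the main fibrillar chains of skin, bone and cartilage: Col1a2 had a highest group mean of 0.6001 CPM, Col2a1 0.403 CPM and Col3a1 0.198 CPM. The others under 1 CPM were Col24a1, Col4a4, Col6a4, Col6a5, Col6a6, Col10a1, Col15a1, Col13a1, Col17a1 and Col25a1. Col24a1, Col6a5 and Col6a6 passed the filter on low counts in no comparison, while 26 of the 43 passed it in all 22 comparisons of 2 groups and 14 in some. Per length, as CPM per kilobase of gene length (RPKM), Col18a1 led in old untreated cells at 18 h in NSC medium with 24.0 ± 3.6 RPKM (mean ± SD, n = 4), ahead of Col4a5 at 16.2 ± 3.7, Col5a3 at 16.03 ± 2.10, Col6a1 at 12.2 ± 2.8 and Col4a1 at 12.1 ± 0.90. Col4a5 and Col5a3 lay within each other's SD, and so did Col6a1 and Col4a1.

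**Figure D1:**
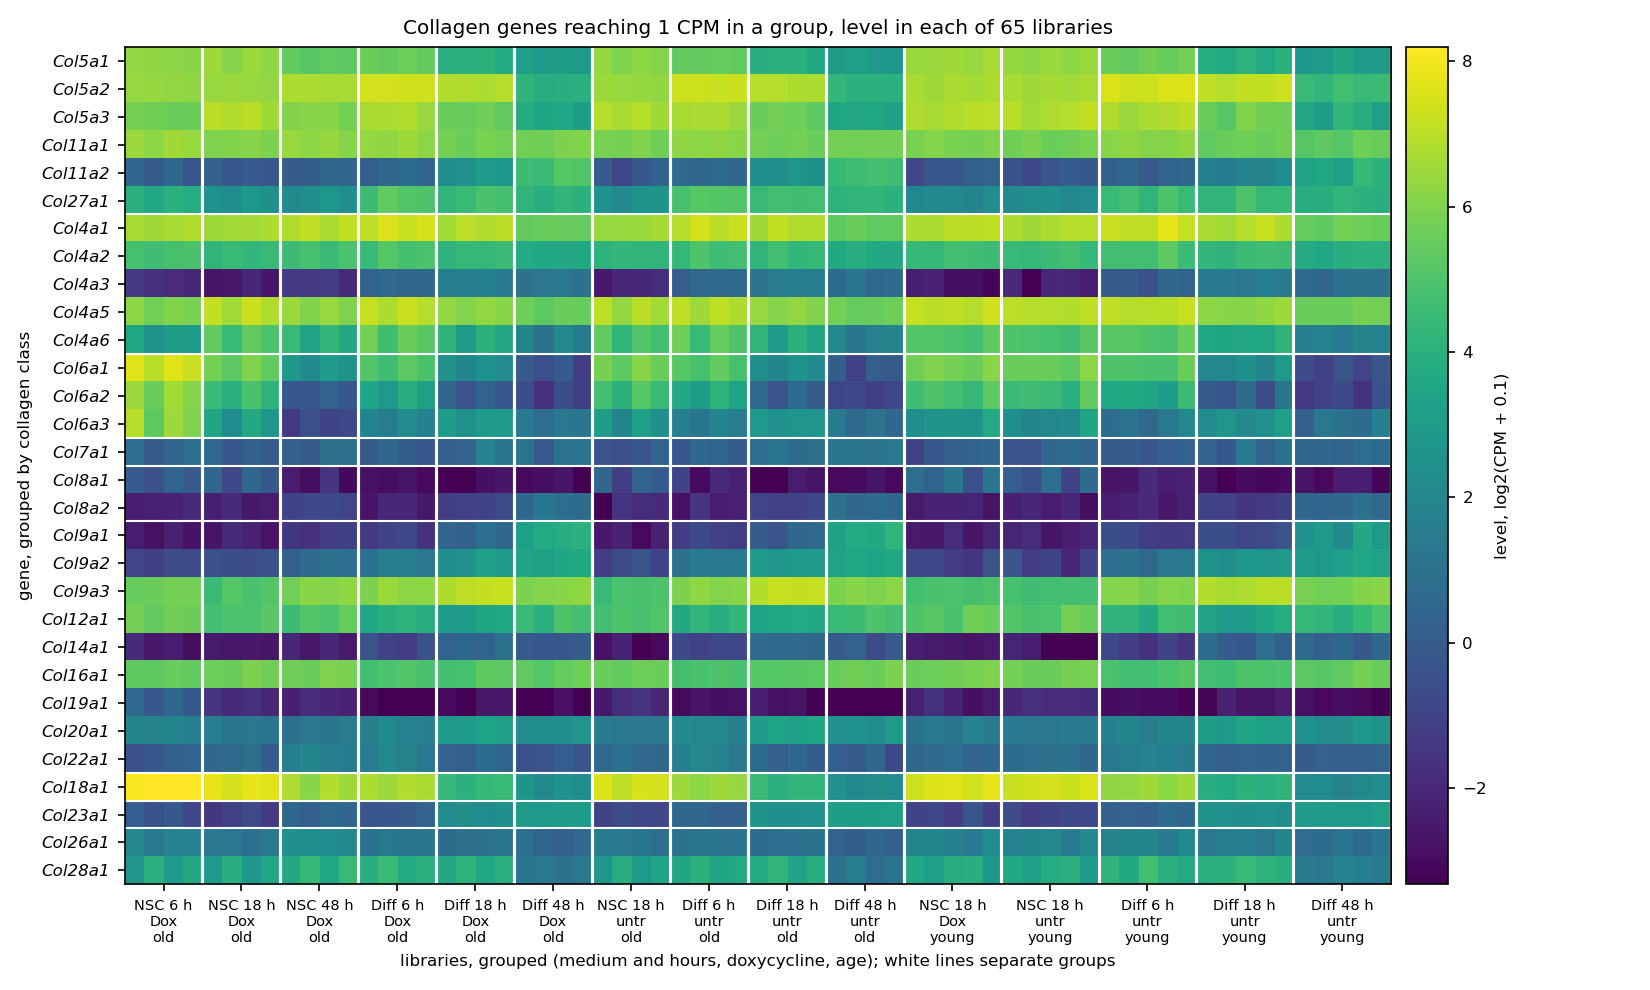
Level of each collagen gene that reached a group mean of 1 CPM, as log2(CPM + 0.1), in every library; rows are genes ordered by class and columns are libraries in 15 groups. Col18a1 and the type VI genes are brightest at 6 h in NSC medium, and Col9a1, Col9a2, Col11a2 and Col23a1 brighten through differentiation.

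Collagen transcripts together took up less of the RNA at 48 h of differentiation than at any other hour of the untreated course. Their share of all counts was 0.0942% ± 0.0094 at 18 h in NSC medium, 0.103% ± 0.0025 at 6 h of differentiation, 0.0763% ± 0.0030 at 18 h and 0.0449% ± 0.0018 at 48 h in old untreated cells (SD, n = 4 each). In young untreated cells it was 0.102% ± 0.0073, 0.108% ± 0.0069, 0.0742% ± 0.0070 and 0.0402% ± 0.0043 at the same points (n = 5 each). The libraries at 48 h did not overlap those of the earlier hours at either age. The make-up changed as well: the largest contributor in CPM was Col18a1 in NSC medium and Col5a2 at 6 h of differentiation. At 18 h of differentiation it was Col9a3 in old and Col5a2 in young cells, and at 48 h Col9a3 at both ages. Of the 22 genes of at least 5 CPM in the untreated course, 20 peaked at the same point in old and young cells. Col5a1, Col5a3, Col6a1, Col6a2, Col12a1 and Col18a1 peaked in NSC medium at both ages. Col5a2, Col11a1, Col27a1, Col4a1, Col4a2, Col4a5 and Col4a6 peaked at 6 h of differentiation. Col9a3, Col20a1 and Col28a1 peaked at 18 h, and Col11a2, Col9a1, Col9a2 and Col23a1 at 48 h.

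Differentiation was compared step by step in untreated cells, to follow genes that change as stem cells leave NSC medium. At 6 h of differentiation against 18 h in NSC medium, 15 of 36 tested collagen genes rose and 10 fell in old cells (edgeR, adjusted p under 0.05). Of all tested genes, 75.5% passed, 38.2% as higher and 37.4% as lower. In young cells 15 of 36 rose and 12 fell, where 74.9% of all genes passed, 38.4% as higher and 36.5% as lower. At 18 h against 6 h of differentiation, 12 rose and 12 fell of 31 in old cells (67.7% of all genes passed, 34.1% higher and 33.6% lower), and 10 rose and 13 fell of 32 in young cells (66.5%, 34% higher and 32.4% lower). At 48 h against 18 h, 7 rose and 19 fell of 31 in old cells (56.5%, 28% higher and 28.5% lower), and 7 rose and 18 fell of 31 in young cells (56.9%, 27.7% higher and 29.2% lower). The median log2 change over the tested collagens in this last step was -0.67 in old and -0.64 in young cells, against -0.0044 and -0.011 over all tested genes. Groups of equal labelled hours, which may differ in time since plating, were 18 h of differentiation and 18 h in NSC medium. Between them 15 rose and 11 fell of 34 in old cells (82% of all genes passed, 41.5% higher and 40.5% lower). In young cells 12 rose and 15 fell of 36 (82.6%, 42.3% higher and 40.3% lower). Most genes passed in these steps, so the counts alone say little about collagens. Genes called at both ages numbered 24, 21 and 25 in the 3 steps, which was 96%, 87.5% and 96.2% of the old calls and 88.9%, 91.3% and 100% of the young calls. All of these had the same direction at both ages. Over all genes the shares called at both ages were 90.8%, 87.6% and 84.1% of the old calls and 91.7%, 89.1% and 83.3% of the young calls.

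**Figure D2:**
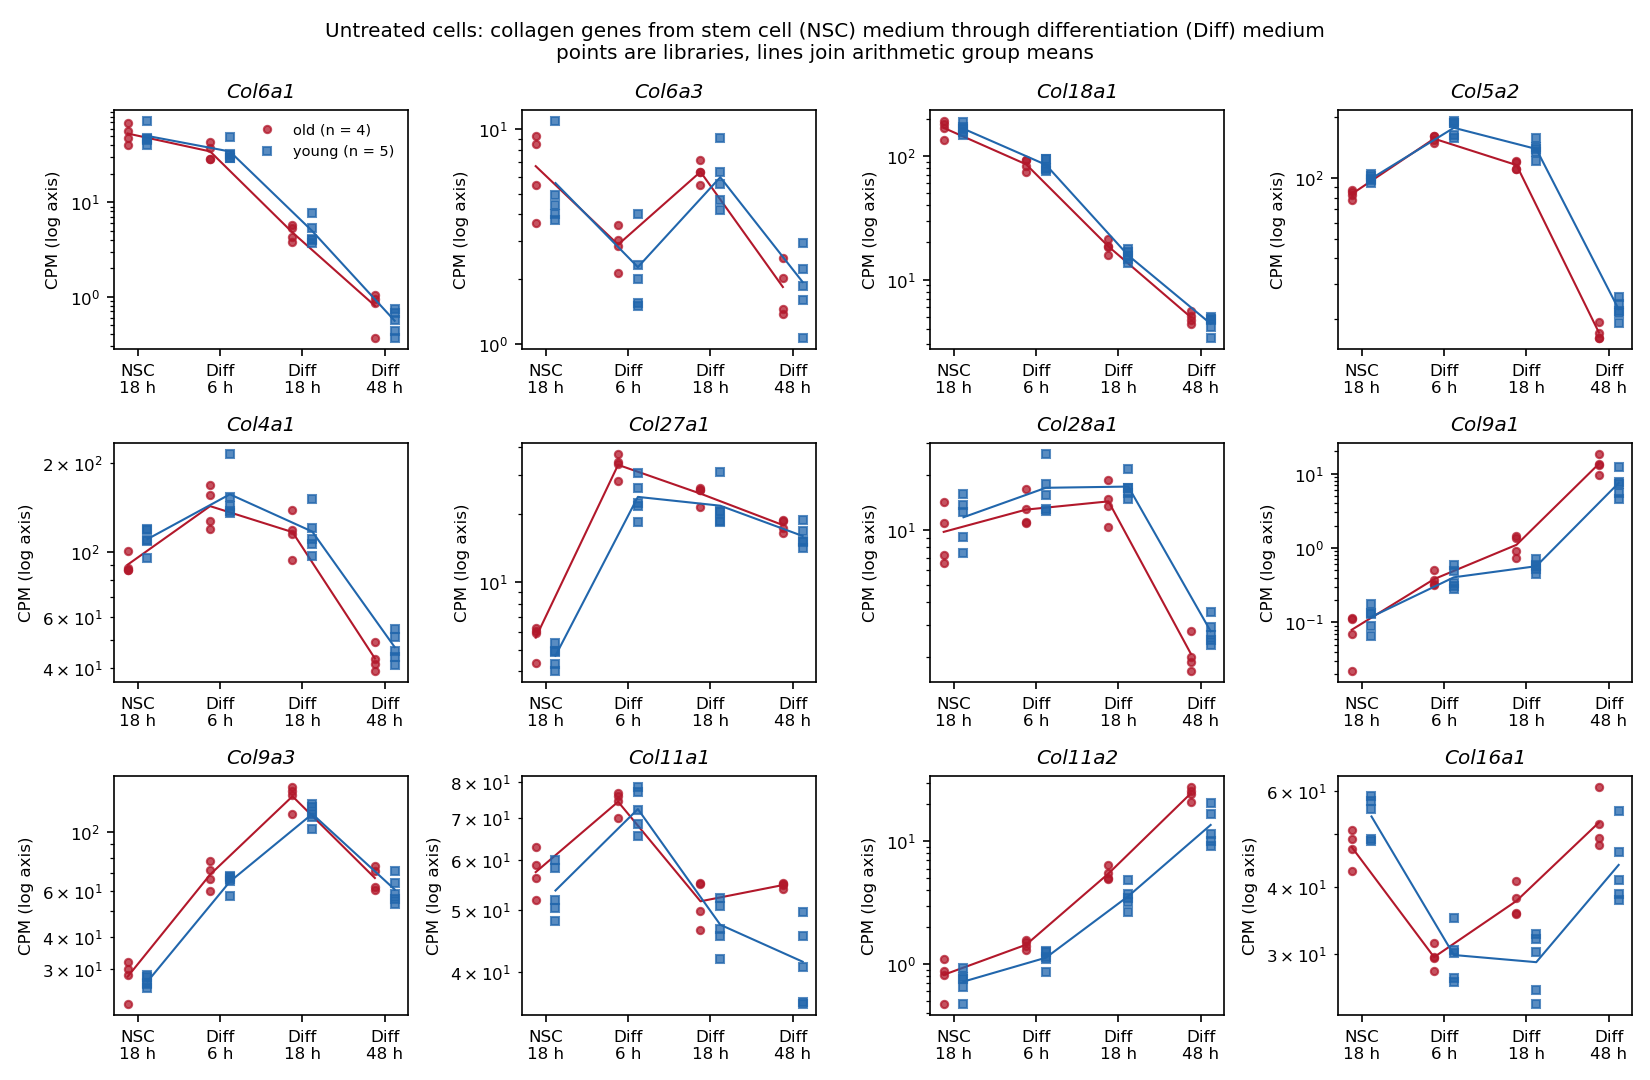
CPM on a log axis of 12 collagen genes in untreated cells at 18 h in NSC medium and at 6, 18 and 48 h of differentiation; circles are old libraries, squares young libraries, and lines join arithmetic group means. Col6a1 and Col18a1 fall at every step, Col6a3 falls and rises before it falls again, and Col9a1 and Col11a2 are highest at 48 h.

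The 3 main type VI genes fell on different schedules. Col6a1, which encodes the alpha 1 chain of the beaded filament, had 56.6, 40.1, 69.1 and 47.8 CPM at 18 h in NSC medium, 37.2, 28.5, 43.6 and 28.9 CPM at 6 h of differentiation, 5.29, 3.84, 5.75 and 4.28 CPM at 18 h and 0.955, 0.363, 1.03 and 0.868 CPM at 48 h in old untreated cells. In young untreated cells Col6a1 had 46.4, 47.4, 45.3, 40.5 and 72.2 CPM at 18 h in NSC medium, 31.8, 32.5, 29.2, 29.7 and 49.2 CPM at 6 h of differentiation, 3.98, 4.04, 5.36, 3.67 and 7.76 CPM at 18 h and 0.564, 0.370, 0.681, 0.438 and 0.737 CPM at 48 h. The libraries at 18 and at 48 h of differentiation lay apart from each other and from all earlier ones, while those at 6 h overlapped those in NSC medium. At 6 h the log2 fold change was -0.62 ± 0.21, adjusted p = 0.0293 in old cells and -0.54 ± 0.19, adjusted p = 0.0242 in young cells. At 18 against 6 h it was -2.85 ± 0.19, adjusted p = 1.8e-06 in old and -2.80 ± 0.25, adjusted p = 4.2e-06 in young cells, and at 48 against 18 h -2.57 ± 0.25, adjusted p = 7.8e-06 and -3.17 ± 0.26, adjusted p = 7.9e-07. Values after the sign ± are standard errors for fold changes and SDs for levels throughout.

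Col6a2, the alpha 2 chain, fell alongside Col6a1. It averaged 1.13 ± 0.367 CPM at 18 h of differentiation and 25.4 ± 8.16 CPM at 18 h in NSC medium in old cells (n = 4 each), and 1.16 ± 0.657 CPM in differentiation and 25.7 ± 9.22 CPM in NSC medium in young cells (n = 5 each). The log2 fold change between these groups was -4.48 ± 0.33, adjusted p = 4.4e-06 in old and -4.47 ± 0.41, adjusted p = 4.0e-06 in young cells. The old animal of replicate 2 had the lowest Col6a1 level of its age at 18 h in NSC medium with and without doxycycline, and the young animal of replicate 5 the highest. At 6 h against NSC medium, both young calls were lost when replicate 2 or 3 was left out, and that of Col6a1 also without replicate 1, with log2 fold changes between -0.56 and -0.53 for Col6a1 and between -0.98 and -0.91 for Col6a2. Both old calls were lost without replicate 1 or 4, with log2 fold changes between -0.66 and -0.59 and between -1.08 and -1.02. With animals as blocks the adjusted p of these 4 calls lay between 3.4e-11 and 4.8e-08.

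Col6a3, the large alpha 3 chain, did not follow the other chains. It had 8.45, 3.66, 9.21 and 5.49 CPM at 18 h in NSC medium, 3.03, 2.13, 3.59 and 2.85 CPM at 6 h of differentiation, 7.16, 5.50, 6.27 and 6.31 CPM at 18 h and 2.51, 1.45, 2.02 and 1.39 CPM at 48 h in old untreated cells. Col6a3 in young untreated cells had 4.93, 3.76, 4.02, 4.42 and 10.8 CPM at 18 h in NSC medium, 1.56, 2.00, 1.503, 2.33 and 4.00 CPM at 6 h of differentiation, 4.67, 6.32, 4.18, 5.56 and 9.04 CPM at 18 h and 1.07, 2.24, 1.85, 1.61 and 2.95 CPM at 48 h. Levels at 18 h of differentiation were above all of those at 6 h of the same age, and overlapped those in NSC medium. Col6a3 fell at 6 h (-1.20 ± 0.30, adjusted p = 0.00628 in old and -1.29 ± 0.36, adjusted p = 0.00746 in young cells), rose at 18 h against 6 h (1.13 ± 0.14, adjusted p = 9.7e-06 and 1.39 ± 0.30, adjusted p = 0.00170) and fell at 48 h (-1.79 ± 0.17, adjusted p = 2.3e-06 and -1.64 ± 0.28, adjusted p = 4.3e-04). At 18 h of differentiation against 18 h in NSC medium its log2 fold changes were -0.055 ± 0.27 in old and 0.12 ± 0.33 in young cells, which did not pass. The ratio of Col6a1 to Col6a3 per length was 23.1 ± 5.1 at 18 h in NSC medium, 32.7 ± 3.7 at 6 h of differentiation, 2.07 ± 0.30 at 18 h and 1.21 ± 0.44 at 48 h in old cells, and in young cells 26.8 ± 6.2, 44.3 ± 10, 2.34 ± 0.71 and 0.865 ± 0.38. Col6a4, Col6a5 and Col6a6, which can take the place of the alpha 3 chain, stayed under 0.25 CPM in every group.

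Col18a1, the multiplexin of basement membranes whose end piece is released as endostatin, fell at every step. It had 191, 133, 181 and 168 CPM at 18 h in NSC medium, 91.7, 74.6, 92.1 and 83.3 CPM at 6 h of differentiation, 21.3, 15.9, 18.2 and 18.6 CPM at 18 h and 5.57, 4.40, 5.10 and 4.75 CPM at 48 h in old untreated cells. The young untreated cells had 148, 165, 172, 155 and 187 CPM at 18 h in NSC medium, 78.4, 80.1, 95.0, 76.0 and 94.0 CPM at 6 h of differentiation, 14.6, 13.6, 16.7, 15.6 and 17.8 CPM at 18 h and 4.81, 4.70, 3.35, 4.16 and 4.95 CPM at 48 h. No library overlapped one of another point at the same age. The log2 fold changes were -0.97 ± 0.12, adjusted p = 1.2e-04, then -2.20 ± 0.098, adjusted p = 4.5e-08 and -1.92 ± 0.093, adjusted p = 5.6e-09 in old cells, and -0.95 ± 0.076, adjusted p = 9.6e-08, -2.43 ± 0.091, adjusted p = 1.7e-10 and -1.85 ± 0.11, adjusted p = 2.3e-08 in young cells. The other multiplexin, Col15a1, stayed at or under 0.140 CPM in every group.

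The type IV genes of a head-to-head pair mostly moved in the same direction, by different amounts. Col4a1 had 86.3, 86.6, 87.6 and 100.3 CPM at 18 h in NSC medium, 119, 169, 127 and 156 CPM at 6 h of differentiation, 93.7, 139, 115 and 118 CPM at 18 h and 39.0, 49.1, 41.4 and 43.1 CPM at 48 h in old untreated cells. Col4a1 in young untreated cells had 109, 95.4, 108, 119 and 119 CPM at 18 h in NSC medium, 153, 135, 138, 215 and 143 CPM at 6 h of differentiation, 106, 96.5, 120.0, 151 and 111 CPM at 18 h and 43.7, 40.9, 54.4, 51.0 and 45.8 CPM at 48 h. Its libraries at 6 h of differentiation lay above those in NSC medium and those at 48 h below all others. Col4a1 rose at 6 h by 0.67 ± 0.11, adjusted p = 6.1e-04 on the log2 scale in old and 0.52 ± 0.12, adjusted p = 0.00265 in young cells, and fell at 48 h against 18 h by a log2 fold change of -1.45 ± 0.12, adjusted p = 2.0e-05 and -1.33 ± 0.12, adjusted p = 7.4e-06. The step between them had a log2 fold change of -0.28 ± 0.15 in old cells, which passed only with animals as blocks (-0.28 ± 0.040, adjusted p = 1.2e-05), and -0.41 ± 0.15, adjusted p = 0.0373 in young cells. The young call in that step was lost without replicate 1, 2, 3 or 5.

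Col4a2 moved in the same directions with smaller changes at 48 h. It averaged 18.5 ± 0.870 CPM at 18 h in NSC medium, 25.9 ± 5.05 at 6 h of differentiation, 21.2 ± 3.39 at 18 h and 13.2 ± 1.47 CPM at 48 h in old untreated cells (n = 4 each). At 48 h against 18 h its log2 fold change was -0.71 ± 0.11, adjusted p = 3.7e-04 in old and -0.64 ± 0.11, adjusted p = 3.2e-04 in young cells. The ratio of Col4a1 to Col4a2 per length was 4.34 ± 0.33 at 18 h in NSC medium, 4.92 ± 0.30 at 6 h of differentiation, 4.87 ± 0.31 at 18 h and 2.90 ± 0.15 at 48 h in old cells. In young cells it was 4.34 ± 0.41, 4.91 ± 0.37, 4.70 ± 0.44 and 2.92 ± 0.26 at the same points. With the longest transcript as length, the ratio in old cells was 4.77 in NSC medium and 3.19 at 48 h. The protein chains are thought to join as 2 alpha 1 and 1 alpha 2 chains. The ratios here are of RNA, vary with the length used and do not give the ratio of the proteins. The young call for Col4a2 at 6 h (0.34 ± 0.14, adjusted p = 0.0453) was lost without replicate 1, 2, 3 or 5, and the young animal of replicate 4 had the highest level of both genes at that point.

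Col4a5 and Col4a6, X-linked chains of a further basement membrane network, lie 1309 bases apart from start to start. Col4a5 averaged 109 ± 24.9, 119.6 ± 20.2, 75.2 ± 9.96 and 48.9 ± 5.01 CPM at 18 h in NSC medium and at 6, 18 and 48 h of differentiation in old untreated cells, and Col4a6 30.1 ± 9.78, 37.2 ± 12.4, 13.2 ± 4.93 and 3.39 ± 0.880 CPM. Both fell in the last 2 steps at both ages: at 48 h against 18 h the log2 fold change was -1.97 ± 0.33, adjusted p = 0.00173 for Col4a6 and -0.64 ± 0.11, adjusted p = 9.5e-04 for Col4a5 in old cells, and -2.03 ± 0.14, adjusted p = 2.5e-07 and -0.62 ± 0.074, adjusted p = 1.9e-05 in young cells. Their ratio per length was 4.40 ± 0.58, 4.02 ± 0.82, 7.34 ± 2.2 and 17.8 ± 3.9 (Col4a5 over Col4a6) at the 4 points in old cells. The Col4a6 call at 18 h against 6 h in old cells was lost without replicate 3 or 4 (-1.52 to -1.45). With animals as blocks both also passed as higher at 6 h in old cells (0.16 ± 0.036, adjusted p = 9.0e-04 for Col4a5 and 0.31 ± 0.042, adjusted p = 7.2e-06 for Col4a6).

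Col4a3, a chain of the kidney and lung basement membrane network, was low but rose early. It had 1.04, 1.49, 1.48 and 1.503 CPM at 6 h of differentiation and 0.0707, 0.149, 0.154 and 0.181 CPM at 18 h in NSC medium in old untreated cells. The groups did not overlap, and the log2 fold change was 3.30 ± 0.26, adjusted p = 2.3e-07 in old and 3.16 ± 0.40, adjusted p = 6.5e-06 in young cells. Its neighbour Col4a4, with a start 72 bases away, averaged 0.432 ± 0.197 CPM at 6 h of differentiation and 0.359 ± 0.0468 CPM in NSC medium in old cells, a difference that did not pass (0.27 ± 0.32, adjusted p = 0.470).

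The fibrillar type V genes split. Col5a2, the alpha 2 chain, had 87.6, 85.3, 82.3 and 78.0 CPM at 18 h in NSC medium, 161, 162, 148 and 155 CPM at 6 h of differentiation, 121, 120.2, 111 and 111 CPM at 18 h and 19.5, 16.2, 17.0 and 16.1 CPM at 48 h in old untreated cells. The young untreated cells had 105, 94.4, 98.7, 97.9 and 102 CPM at 18 h in NSC medium, 187, 164, 157, 191 and 187 CPM at 6 h of differentiation, 135, 121, 143, 139 and 158 CPM at 18 h and 21.5, 19.1, 25.8, 22.0 and 23.7 CPM at 48 h. Levels at 6 h of differentiation lay above those in NSC medium, and levels at 48 h below those of every other point, at both ages. Col5a2 rose at 6 h (0.92 ± 0.042, adjusted p = 1.9e-09 in old and 0.85 ± 0.057, adjusted p = 1.3e-08 in young cells) and fell at 48 h against 18 h (-2.77 ± 0.059, adjusted p = 2.0e-11 and -2.66 ± 0.090, adjusted p = 2.5e-09). Col5a1, the alpha 1 chain, instead fell at each step: it averaged 71.9 ± 8.74, 42.7 ± 0.987, 15.2 ± 1.61 and 7.65 ± 0.955 CPM at the 4 points in old cells, with log2 fold changes of -0.75 ± 0.076, -1.48 ± 0.068 and -1.01 ± 0.097 that all passed. Col5a3 averaged 109 ± 14.3, 99.7 ± 9.90, 48.5 ± 5.94 and 11.2 ± 1.15 CPM, and fell by a log2 fold change of -1.03 ± 0.10, adjusted p = 1.5e-05 and then -2.13 ± 0.10, adjusted p = 4.7e-08. At 6 h its change of -0.13 ± 0.11 in old and -0.11 ± 0.11 in young cells passed only with animals as blocks (-0.12 ± 0.043, adjusted p = 0.0206 and -0.11 ± 0.032, adjusted p = 0.00595).

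The type XI genes approached each other in level per length. Col11a1 averaged 57.5 ± 4.66, 74.3 ± 2.99, 51.7 ± 4.22 and 54.8 ± 0.489 CPM at the 4 points in old untreated cells, rising at 6 h (0.38 ± 0.056, adjusted p = 6.1e-05) and falling at 18 h (-0.51 ± 0.055, adjusted p = 2.5e-06). Col11a2 had 0.884, 0.473, 0.813 and 1.11 CPM at 18 h in NSC medium, 1.51, 1.398, 1.56 and 1.29 CPM at 6 h of differentiation, 4.92, 5.03, 6.48 and 5.48 CPM at 18 h and 20.9, 24.3, 27.8 and 25.6 CPM at 48 h in old untreated cells. Col11a2 in young untreated cells had 0.654, 0.474, 0.755, 0.937 and 0.786 CPM at 18 h in NSC medium, 1.09, 1.25, 0.865, 1.15 and 1.29 CPM at 6 h of differentiation, 3.24, 2.66, 3.48, 3.70 and 4.81 CPM at 18 h and 10.1, 11.4, 9.16, 20.7 and 16.7 CPM at 48 h. Levels of Col11a2 at 18 and 48 h lay above those of every earlier point at both ages. It rose by 1.93 ± 0.12, adjusted p = 9.2e-09 at 18 h and by 2.15 ± 0.10, adjusted p = 1.8e-08 at 48 h on the log2 scale in old cells, and by 1.67 ± 0.16, adjusted p = 3.4e-07 and 1.91 ± 0.26, adjusted p = 1.2e-04 in young cells. The ratio of Col11a1 to Col11a2 per length was 41.5 ± 16, 27.7 ± 1.5, 5.11 ± 0.71 and 1.21 ± 0.15 at the 4 points in old cells. In young cells it was 1.73 ± 0.33 at 48 h. With the longest transcript as length, the ratio at 48 h was 1.78 in old and 2.54 in young cells.

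Col27a1, a fibrillar collagen of cartilage, had the largest early rise in old cells among genes of at least 5 CPM in NSC medium. In young untreated cells in NSC medium it averaged 4.69 CPM. It had 28.3, 37.1, 34.1 and 33.5 CPM at 6 h of differentiation and 5.95, 4.36, 6.23 and 6.05 CPM at 18 h in NSC medium in old untreated cells, and 22.5, 26.2, 18.5, 30.6 and 21.8 CPM at 6 h of differentiation and 4.31, 4.90, 5.34, 4.00 and 4.92 CPM in NSC medium in young untreated cells. The groups lay far apart at both ages, with a log2 fold change of 2.56 ± 0.12, adjusted p = 1.1e-08 in old and 2.36 ± 0.13, adjusted p = 3.8e-09 in young cells. At 48 h of differentiation Col27a1 averaged 17.9 ± 1.14 CPM in old cells, against 16.02 ± 1.86 CPM in young cells.

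The type IX genes were lowest in NSC medium in untreated cells and peaked at different points of differentiation, Col9a3 at 18 h and Col9a1 and Col9a2 at 48 h. These FACIT chains join with each other and decorate fibrils of type II and XI collagen in cartilage. Col9a3 had 22.1, 30.1, 28.5 and 31.9 CPM at 18 h in NSC medium, 59.9, 78.1, 66.3 and 71.7 CPM at 6 h of differentiation, 118, 149, 139 and 143 CPM at 18 h and 60.4, 71.1, 62.1 and 74.1 CPM at 48 h in old untreated cells, and was highest at 18 h. It rose by 1.30 ± 0.12, adjusted p = 1.1e-05 at 6 h and by 1.004 ± 0.094, adjusted p = 9.6e-06 at 18 h and fell by a log2 fold change of -1.06 ± 0.089, adjusted p = 6.3e-06 at 48 h. Col9a2 averaged 0.488 ± 0.158, 2.32 ± 0.360, 7.43 ± 0.788 and 10.9 ± 0.995 CPM at the 4 points in old cells and rose at each step. Col9a1 had 9.43, 13.5, 12.8 and 18.3 CPM at 48 h and 0.898, 0.729, 1.35 and 1.43 CPM at 18 h in old cells, and 5.57, 7.18, 4.53, 12.4 and 7.66 CPM at 48 h and 0.589, 0.574, 0.448, 0.529 and 0.703 CPM at 18 h in young cells. The groups at 48 h were far above those at 18 h, with log2 fold changes of 3.58 ± 0.27, adjusted p = 9.0e-06 in old and 3.69 ± 0.28, adjusted p = 8.7e-07 in young cells. The ratio of Col9a3 to Col9a2 per length was 49.1 ± 13, 24.1 ± 2.0, 15.1 ± 2.9 and 4.91 ± 0.15 at the 4 points in old cells. Of the exon bases of Col9a3, 6.07% overlap those of Tcfl5 on the other strand, and it is not stated whether the counting used strand. Summed levels of several marker lists, glial and other, were also higher at the later points, though not for each marker. The summed level of 8 oligodendrocyte-lineage markers averaged 1052, 1223, 1912 and 4804 CPM at the 4 points in old untreated cells, with 6 of the 8 at 1 CPM or more in NSC medium and all 8 in differentiation. Olig2 made up most of that sum in NSC medium and averaged 956, 856, 686 and 536 CPM at the 4 points, lower at each later point. Gpr17 made up most of the sum at 48 h and averaged 3.06, 66.3, 714 and 2587 CPM. Cspg4 was highest at 6 h of differentiation, at 229 CPM, and averaged 83.3 CPM at 48 h. The sum of 6 astrocyte markers averaged 436, 891, 3292 and 5888 CPM, with all 6 at 1 CPM or more at each point. The neuroblast sum averaged 32.3, 105, 171 and 257 CPM. That of ependymal and choroid plexus markers averaged 31.2, 54.3, 59.4 and 64.0 CPM. The neural stem cell sum was lowest at 48 h, with 5678, 4798, 5319 and 3199 CPM. The part of these cell types in the collagen levels was not tested.

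Among the other FACIT genes, Col12a1, which links fibrils and bears load in tendon, was lowest at 18 h of differentiation and rose again. It averaged 30.4 ± 3.38, 16.5 ± 3.64, 11.7 ± 1.27 and 26.3 ± 4.67 CPM at the 4 points in old and 39.4 ± 11.1, 19.7 ± 5.53, 10.1 ± 2.41 and 21.2 ± 5.67 CPM in young untreated cells. The rise at 48 h against 18 h was 1.14 ± 0.13, adjusted p = 5.0e-05 in old and 1.04 ± 0.21, adjusted p = 0.00172 in young cells. Col16a1 had 46.9, 42.7, 50.8 and 48.9 CPM at 18 h in NSC medium, 27.9, 29.6, 31.5 and 29.5 CPM at 6 h of differentiation, 35.6, 35.8, 38.1 and 41.0 CPM at 18 h and 47.6, 52.2, 49.1 and 61.1 CPM at 48 h in old untreated cells, falling at 6 h (-0.67 ± 0.058, adjusted p = 5.1e-07) and rising in both later steps (0.36 ± 0.053, adjusted p = 5.2e-05 and 0.46 ± 0.078, adjusted p = 4.8e-04). Col20a1 averaged 2.39 ± 0.220, 3.83 ± 0.535, 9.49 ± 1.18 and 5.80 ± 0.932 CPM in old cells, and Col14a1 0.0485 ± 0.0541, 0.442 ± 0.0446, 1.46 ± 0.0534 and 0.856 ± 0.257 CPM. Both were highest at 18 h in old cells, and the rise at 18 h against 6 h was 1.32 ± 0.12, adjusted p = 3.2e-07 for Col20a1 and 1.72 ± 0.17, adjusted p = 7.8e-07 for Col14a1. Col22a1 instead peaked at 6 h with 3.23 ± 0.725 CPM, against 1.51 ± 0.249 CPM in NSC medium (1.10 ± 0.17, adjusted p = 1.0e-04). Col19a1 did not exceed 0.175 CPM in any untreated group.

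The transmembrane collagen Col23a1 rose at every step. It had 0.401, 0.535, 0.473 and 0.463 CPM at 18 h in NSC medium, 1.36, 1.28, 1.07 and 1.06 CPM at 6 h of differentiation, 6.14, 5.47, 5.35 and 5.51 CPM at 18 h and 8.38, 8.30, 8.69 and 9.12 CPM at 48 h in old untreated cells, with no overlap between the points. The log2 fold changes were 1.35 ± 0.17, adjusted p = 1.9e-05, 2.25 ± 0.11, adjusted p = 1.3e-09 and 0.60 ± 0.071, adjusted p = 9.2e-06 in old cells, and 1.47 ± 0.19, 2.18 ± 0.12 and 0.54 ± 0.069 in young cells, which also passed. Col25a1, a transmembrane collagen found in neurons, was lower at 6 h of differentiation with 0.0827 ± 0.0476 CPM than in NSC medium with 0.381 ± 0.0268 CPM in old cells (-2.20 ± 0.37, adjusted p = 1.9e-04). Col13a1, a transmembrane collagen of neuromuscular junctions, averaged 0.159 ± 0.117 CPM at 48 h and 0.471 ± 0.161 CPM at 18 h in old cells (-1.59 ± 0.44, adjusted p = 0.00692).

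Col28a1, a collagen related to type VI and known from peripheral nerve, dropped late. It had 6.56, 14.2, 7.31 and 10.97 CPM at 18 h in NSC medium, 11.1, 16.7, 10.8 and 13.0 CPM at 6 h of differentiation, 13.5, 18.8, 10.4 and 14.8 CPM at 18 h and 1.88, 2.77, 1.66 and 1.99 CPM at 48 h in old untreated cells. Col28a1 in young untreated cells had 12.6, 9.12, 13.8, 15.8 and 7.42 CPM at 18 h in NSC medium, 17.8, 12.7, 26.1, 15.6 and 13.0 CPM at 6 h of differentiation, 16.003, 16.9, 21.7, 17.1 and 14.9 CPM at 18 h and 2.62, 2.32, 3.51, 2.91 and 2.46 CPM at 48 h. Only the libraries at 48 h lay apart, below all others. The log2 fold change at 48 h against 18 h was -2.82 ± 0.21, adjusted p = 5.2e-06 in old and -2.67 ± 0.13, adjusted p = 1.1e-08 in young cells. Earlier changes in old cells passed only with animals as blocks (0.45 ± 0.085, adjusted p = 4.1e-04 at 6 h). The short-chain genes went in opposite directions: Col8a1 averaged 0.173 ± 0.162 CPM at 6 h of differentiation and 0.927 ± 0.417 CPM in NSC medium in old cells (-2.39 ± 0.60, adjusted p = 0.00514), while Col8a2 rose at 48 h to 1.55 ± 0.278 CPM, against 0.422 ± 0.0613 CPM at 18 h (1.84 ± 0.20, adjusted p = 3.2e-06). Col7a1, which forms anchoring fibrils in skin, averaged 1.82 ± 0.270 CPM at 18 h of differentiation and 0.812 ± 0.257 CPM in NSC medium in old cells (1.20 ± 0.21, adjusted p = 1.6e-04).

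Most genes that modify, fold or export collagen were lower in differentiation. At 18 h of differentiation against 18 h in NSC medium in old untreated cells, 3 of 14 genes for proline and lysine modification rose and 11 fell, and of 10 genes for folding and export none rose and 8 fell. In young cells the counts were 3 and 11 of 14, and 1 and 8 of 10. The median log2 change was -0.85 and -1.25 in old cells and -0.79 and -1.10 in young cells, against a median over all genes of 0.025 in old and 0.028 in young cells. Serpinh1, the collagen chaperone, averaged 252 CPM at 18 h of differentiation and 756 CPM in NSC medium in old cells. Plod1, a lysine hydroxylase, went the other way with 136 CPM in differentiation and 58.9 CPM in NSC medium. Genes of a separate list, for trimming outside the cell, were mixed. Adamts14, which cleaves the amino-terminal end piece of fibrillar collagens, averaged 0.406 CPM in differentiation and 62.0 CPM in NSC medium. Bmp1 of that list averaged 199.9 CPM in differentiation and 147.6 CPM in NSC medium. In the same comparison 41.5% of all genes were higher and 40.5% lower in old cells, and 42.3% and 40.3% in young cells. For breakdown and its inhibitors, 6 of 11 tested genes rose and 3 fell in old cells, among them the inhibitor Timp3 with 488 CPM in differentiation and 103 CPM in NSC medium. Of 10 tested receptors, 5 rose and 3 fell, among them Adgrg1, a receptor for collagen III, with 876 CPM in differentiation and 440 CPM in NSC medium.

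Old cells under doxycycline were sampled at matched hours in both media, so the media could be compared at equal labelled hours. At 6 h of differentiation against 6 h in NSC medium, 13 of 37 tested collagens were higher and 13 lower (80.7% of all tested genes passed, 41.4% higher and 39.3% lower). At 18 h 15 of 36 were higher and 15 lower (81.5%, 41.4% higher and 40% lower), and at 48 h 11 of 31 were higher and 17 lower (76.9%, 39.8% higher and 37.1% lower). The differentiation cells had been plated 18 h longer than the NSC cells of the same hour if hours count from the change of medium, which the labels do not settle. The type VI genes were highest of all groups at 6 h in NSC medium. Col6a1 had 34.5, 25.3, 39.8 and 29.4 CPM at 6 h of differentiation and 197, 123, 201 and 149.7 CPM at 6 h in NSC medium (-2.35 ± 0.22, adjusted p = 2.6e-05). Col6a3 had 3.53, 2.73, 4.65 and 3.15 CPM in differentiation and 123, 39.6, 90.7 and 63.3 CPM in NSC medium at that hour (-4.47 ± 0.44, adjusted p = 5.7e-05). The media did not overlap for either gene.

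Within NSC medium, the type VI genes fell with time under doxycycline. The hours in culture and the duration of doxycycline cannot be told apart here. At 18 h against 6 h, 5 of 34 tested collagens rose and 15 fell (61.3% of all genes passed, 30.6% higher and 30.7% lower), with a median log2 change of -0.41. Col6a1 had 197, 123, 201 and 149.7 CPM at 6 h, 55.9, 38.8, 62.0 and 41.1 CPM at 18 h and 7.05, 4.41, 7.90 and 5.75 CPM at 48 h. Col6a2 averaged 74.6 ± 22.7, 21.5 ± 6.17 and 0.898 ± 0.195 CPM, and Col6a3 79.2 ± 36.0, 8.62 ± 3.45 and 0.443 ± 0.128 CPM (SD, n = 4 each). No type VI library of 1 hour overlapped another hour. At 48 h against 18 h the log2 fold changes were -2.97 ± 0.24, adjusted p = 5.3e-05 for Col6a1, -4.57 ± 0.26, adjusted p = 3.0e-06 for Col6a2 and -4.27 ± 0.38, adjusted p = 4.0e-05 for Col6a3. At 48 h Col6a3 was higher in differentiation than in NSC medium, with 2.67, 1.69, 2.32 and 2.16 CPM in differentiation against 0.284, 0.593, 0.419 and 0.475 CPM in NSC medium (2.35 ± 0.22, adjusted p = 8.3e-07), while Col6a1 was lower, with 0.905, 0.613, 0.923 and 0.342 CPM in differentiation against 7.05, 4.41, 7.90 and 5.75 CPM in NSC medium (-3.15 ± 0.29, adjusted p = 4.2e-06).

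A contractile cytoskeleton marker fell with these genes in NSC medium under doxycycline. Acta2, smooth muscle actin, had 168, 90.1, 139 and 156 CPM at 6 h, 43.6, 22.3, 31.6 and 37.7 CPM at 18 h and 1.96, 2.05, 1.60 and 2.44 CPM at 48 h in NSC medium with doxycycline in old cells. The animal of replicate 2 had the lowest Acta2 at 6 and 18 h and also the lowest Col6a1. The fibroblast marker Fbln1 went the other way. It had 21.6, 29.9, 21.7 and 26.2 CPM at 6 h, 20.8, 26.9, 17.2 and 22.6 CPM at 18 h and 39.04, 44.8, 36.8 and 45.7 CPM at 48 h in the same animals. Replicate 2 was highest at 6 and 18 h. Of the 9 pericyte and smooth muscle markers, 3 (Acta2, Tagln and Pdgfrb) reached 1 CPM in any group, and Kcnj8 and Abcc9 lay under 0.1 CPM in all. In old untreated cells Acta2 had 44.3, 26.3, 40.5 and 44.7 CPM at 18 h in NSC medium and 14.2, 8.40, 11.6 and 15.02 CPM at 6 h of differentiation. It averaged 1.66 CPM at 18 h and 1.03 CPM at 48 h of differentiation. Between 6 and 18 h Acta2 was thus lower at the later hour, while Col6a3 rose. Tagln averaged 7.22 CPM in NSC medium and 3.46 CPM at 6 h of differentiation in these cells. Other members of the list went the other way. Pdgfrb averaged 0.0282 CPM in NSC medium and 0.0375, 0.108 and 4.80 CPM at 6, 18 and 48 h of differentiation. Myh11 averaged 0.202 CPM in NSC medium and 0.841 CPM at 6 h. The part of pericytes and smooth muscle cells in the type VI results of both courses was not tested.

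**Figure D3:**
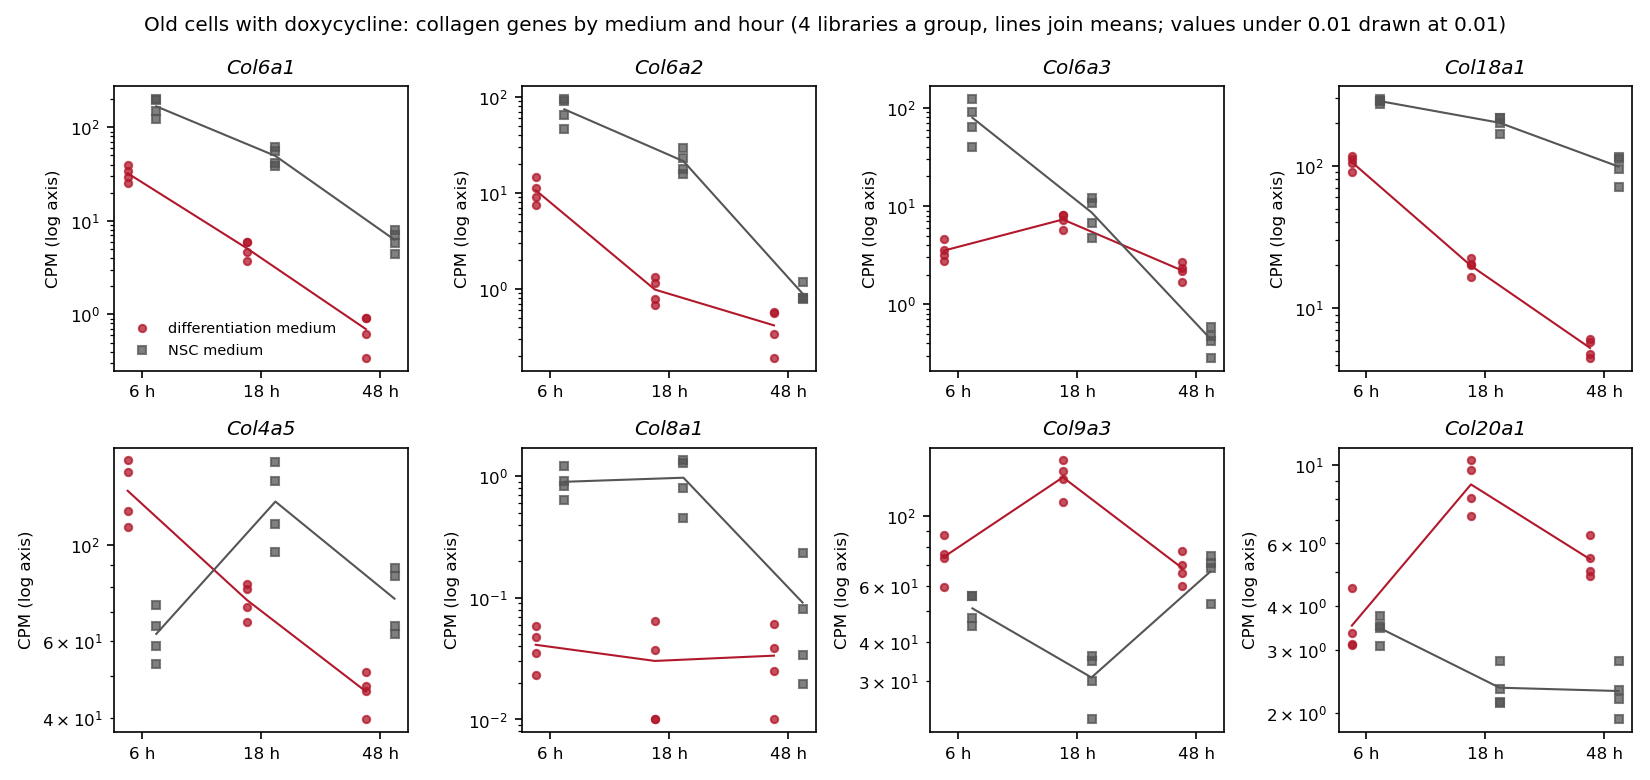
CPM on a log axis of 8 collagen genes in old cells with doxycycline at 6, 18 and 48 h, with circles for differentiation medium and squares for NSC medium (4 libraries each) and lines joining means. The type VI genes and Col18a1 fall with time in both media from higher levels in NSC medium, apart from Col6a3 in differentiation, which is highest at 18 h.

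Other genes changed with time in NSC medium as well. Col18a1 had 268, 293, 284 and 285 CPM at 6 h, 216, 168, 217 and 198 CPM at 18 h and 112, 70.8, 115 and 95.1 CPM at 48 h (-0.48 ± 0.075, adjusted p = 4.0e-04 and -1.01 ± 0.17, adjusted p = 0.00237 for the steps). Col4a5 and Col4a6 went up and then down: Col4a6 had 11.4, 5.70, 8.68 and 7.56, then 42.6, 21.8, 42.2 and 30.2, then 22.1, 9.88, 18.8 and 12.3 CPM, with steps of 2.06 ± 0.29, adjusted p = 3.9e-04 and -1.10 ± 0.34, adjusted p = 0.0314. The second of these calls was lost without replicate 1, 3 or 4 (-1.18 to -1.06). Col5a3 did likewise, averaging 51.0 ± 4.48, 116 ± 15.9 and 65.8 ± 7.401 CPM. Col9a3 went down and then up, averaging 51.0 ± 5.62, 30.8 ± 6.003 and 66.8 ± 9.71 CPM (-0.70 ± 0.14, adjusted p = 0.00248 and 1.13 ± 0.17, adjusted p = 9.5e-04). Col19a1, low elsewhere, had 1.44, 0.780, 1.32 and 0.800 CPM at 6 h and 0.257, 0.159, 0.201 and 0.136 CPM at 18 h (log2 fold change at 18 h against 6 h -2.50 ± 0.30, adjusted p = 3.8e-05). At 48 h against 18 h, 13 of 35 tested collagens rose and 11 fell (52.3% of all genes passed, 26% higher and 26.3% lower), among them a rise of Col26a1 to 4.80 ± 0.528 CPM, against 2.21 ± 0.293 CPM at 18 h (1.13 ± 0.12, adjusted p = 1.4e-05).

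Age was compared in untreated cells, old against young, at each of the 4 points. Few collagens differed: 4 of 35 tested were lower and none higher in old cells at 18 h in NSC medium (5.95% of all tested genes passed, 3.09% higher and 2.86% lower). At 6 h of differentiation 1 of 36 was lower (1.43%, 0.71% higher and 0.721% lower), at 18 h 3 of 31 were higher and 2 lower (5.19%, 2.85% higher and 2.34% lower), and at 48 h 2 of 31 were higher and 2 lower (10.6%, 5.63% higher and 5.02% lower). The collagen counts exceeded these background shares by at most 4 genes. Leaving out 1 library at a time gave 1 to 3, 0 to 2, 0 to 6 and 1 to 8 calls at the 4 points.

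Col26a1, a secreted collagen known from testis and ovary, was lower in old cells at all 4 points. At 18 h in NSC medium it had 2.64, 2.59, 2.14 and 1.67 CPM in old cells and 3.31, 3.60, 4.04, 2.54 and 4.17 CPM in young cells (-0.66 ± 0.17, adjusted p = 0.0414). At 6 h of differentiation it had 1.94, 2.14, 2.04 and 2.00 CPM in old, against 3.41, 3.55, 3.75, 2.49 and 4.40 CPM in young cells (-0.80 ± 0.14, adjusted p = 0.0168). The ages did not overlap in differentiation medium, and in NSC medium 1 young library lay below 2 old ones. At 18 h the log2 fold change was -0.66 ± 0.15, adjusted p = 0.0202, and at 48 h -0.62 ± 0.16, adjusted p = 0.0297. The 4 points come from the same 9 animals, so they are not independent of each other, and leaving out 1 library kept the log2 fold change between -0.90 and -0.53 over all of them. The call at 6 h was lost without old replicate 3 or 4, and that at 18 h of differentiation without old replicate 2 or 3. The call at 48 h was lost without old replicate 1, 2 or 4 or young replicate 1, 3 or 5, and that in NSC medium held only without old replicate 1 or young replicate 4.

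Col5a2 was lower in old cells at 3 points. At 18 h in NSC medium it had 87.6, 85.3, 82.3 and 78.0 CPM in old, against 105, 94.4, 98.7, 97.9 and 102 CPM in young cells, with no overlap (-0.27 ± 0.042, adjusted p = 0.00565), and this call held without each of the 9 libraries in turn. At 18 h of differentiation the log2 fold change was -0.25 ± 0.065, adjusted p = 0.0469, which was lost with sex as a covariate, without old replicate 2, 3 or 4 and without young replicate 1, 3 or 4 (-0.30 to -0.20 over these fits). At 48 h it was -0.38 ± 0.088, adjusted p = 0.0214, which was lost without old replicate 2, 3 or 4 (-0.44 to -0.32). At 6 h it was -0.18 ± 0.061, adjusted p = 0.184, which did not pass. Col4a1 and Col4a2 were lower in old cells at 18 h in NSC medium only by this test: Col4a1 had 86.3, 86.6, 87.6 and 100.3 CPM in old, against 109, 95.4, 108, 119 and 119 CPM in young cells (-0.30 ± 0.070, adjusted p = 0.0306), and Col4a2 17.4, 19.5, 18.3 and 18.7 CPM in old, against 21.7, 20.2, 23.8, 26.4 and 21.1 CPM in young cells (-0.31 ± 0.077, adjusted p = 0.0375). For Col4a1 1 young library lay below the highest old one, and for Col4a2 the ages did not overlap. Both calls were lost without old replicate 1, 2 or 3 or young replicate 1 or 3, that of Col4a1 also without young replicate 4 and that of Col4a2 also without old replicate 4, at log2 fold changes between -0.35 and -0.27 for Col4a1 and between -0.34 and -0.24 for Col4a2.

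The collagens called as higher in old cells were called at 18 or 48 h of differentiation. Col11a2 at 6 h of differentiation averaged 1.44 ± 0.120 CPM in old cells, against 1.13 ± 0.167 CPM in young cells. The ages did not overlap, and the log2 fold change missed the threshold (0.35 ± 0.14, adjusted p = 0.298). Col27a1 averaged 33.2 ± 3.67 CPM in old cells at that hour, against 23.9 ± 4.62 CPM in young cells. This missed it too (0.47 ± 0.13, adjusted p = 0.142). The summed level of the 8 oligodendrocyte-lineage markers was also higher in old cells at 18 and 48 h, at 1735 to 2081 CPM in old and 1350.2 to 1628 CPM in young cells at 18 h, and at 4161 to 5474 CPM in old and 2119.9 to 3940.4 CPM in young cells at 48 h. Most of the difference at 48 h was Gpr17, which averaged 2587 CPM in old cells, against 1403 CPM in young cells. Olig2 averaged 536 CPM in old cells, against 525 CPM in young cells. Pdgfra was lower in old cells, with 73.5 CPM, against 103 CPM in young cells. All 8 reached 1 CPM at both hours and ages. Other lists differed too, though not for each marker. The neural stem cell sum was 5173 to 5515 CPM in old and 5532 to 6061 CPM in young cells at 18 h. At 48 h it averaged 3199 CPM in old, against 3972 CPM in young cells, and the ages overlapped. The neuroblast sum averaged 171 CPM in old, against 139 CPM in young cells at 18 h, also with overlap. The part of these lists in the results that follow was not tested. Col11a2 had 4.92, 5.03, 6.48 and 5.48 CPM in old, against 3.24, 2.66, 3.48, 3.70 and 4.81 CPM in young cells at 18 h, with no overlap (0.63 ± 0.15, adjusted p = 0.0265). At 48 h it had 20.9, 24.3, 27.8 and 25.6 CPM in old, against 10.1, 11.4, 9.16, 20.7 and 16.7 CPM in young cells, also without overlap, and the log2 fold change of 0.86 ± 0.25 missed the threshold (adjusted p = 0.0691). Col9a1 had 0.898, 0.729, 1.35 and 1.43 CPM in old, against 0.589, 0.574, 0.448, 0.529 and 0.703 CPM in young cells at 18 h (0.98 ± 0.23, adjusted p = 0.0231), and Col16a1 35.6, 35.8, 38.1 and 41.0 CPM in old, against 25.8, 24.3, 32.0, 30.2 and 32.7 CPM in young cells (0.39 ± 0.092, adjusted p = 0.0324). At 48 h Col7a1 had 2.15, 2.22, 1.99 and 2.27 CPM in old, against 1.25, 1.28, 1.19, 1.69 and 1.59 CPM in young cells (0.63 ± 0.13, adjusted p = 0.0148), a call that held without each library in turn. Col11a1 had 55.2, 54.1, 55.1 and 54.9 CPM in old cells at 48 h, against 35.7, 40.7, 35.5, 49.8 and 45.6 CPM in young cells (0.41 ± 0.10, adjusted p = 0.0348). The ages did not overlap for these 4 genes at the points given. All 3 calls at 18 h were lost without old replicate 3, those of Col11a2 and Col16a1 also without old replicate 2 or 4 or young replicate 1, and that of Col9a1 also without old replicate 4 or young replicate 1. Young replicate 3 mattered to Col11a2 and young replicate 4 to Col16a1 in the same way, and Col16a1 was lost with sex as a covariate. Over these fits the log2 fold change stayed between 0.54 and 0.76 for Col11a2, between 0.81 and 1.12 for Col9a1 and between 0.33 and 0.44 for Col16a1. Col11a1 at 48 h stayed between 0.35 and 0.49, and its call held only without young replicate 4 or 5.

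**Figure D4:**
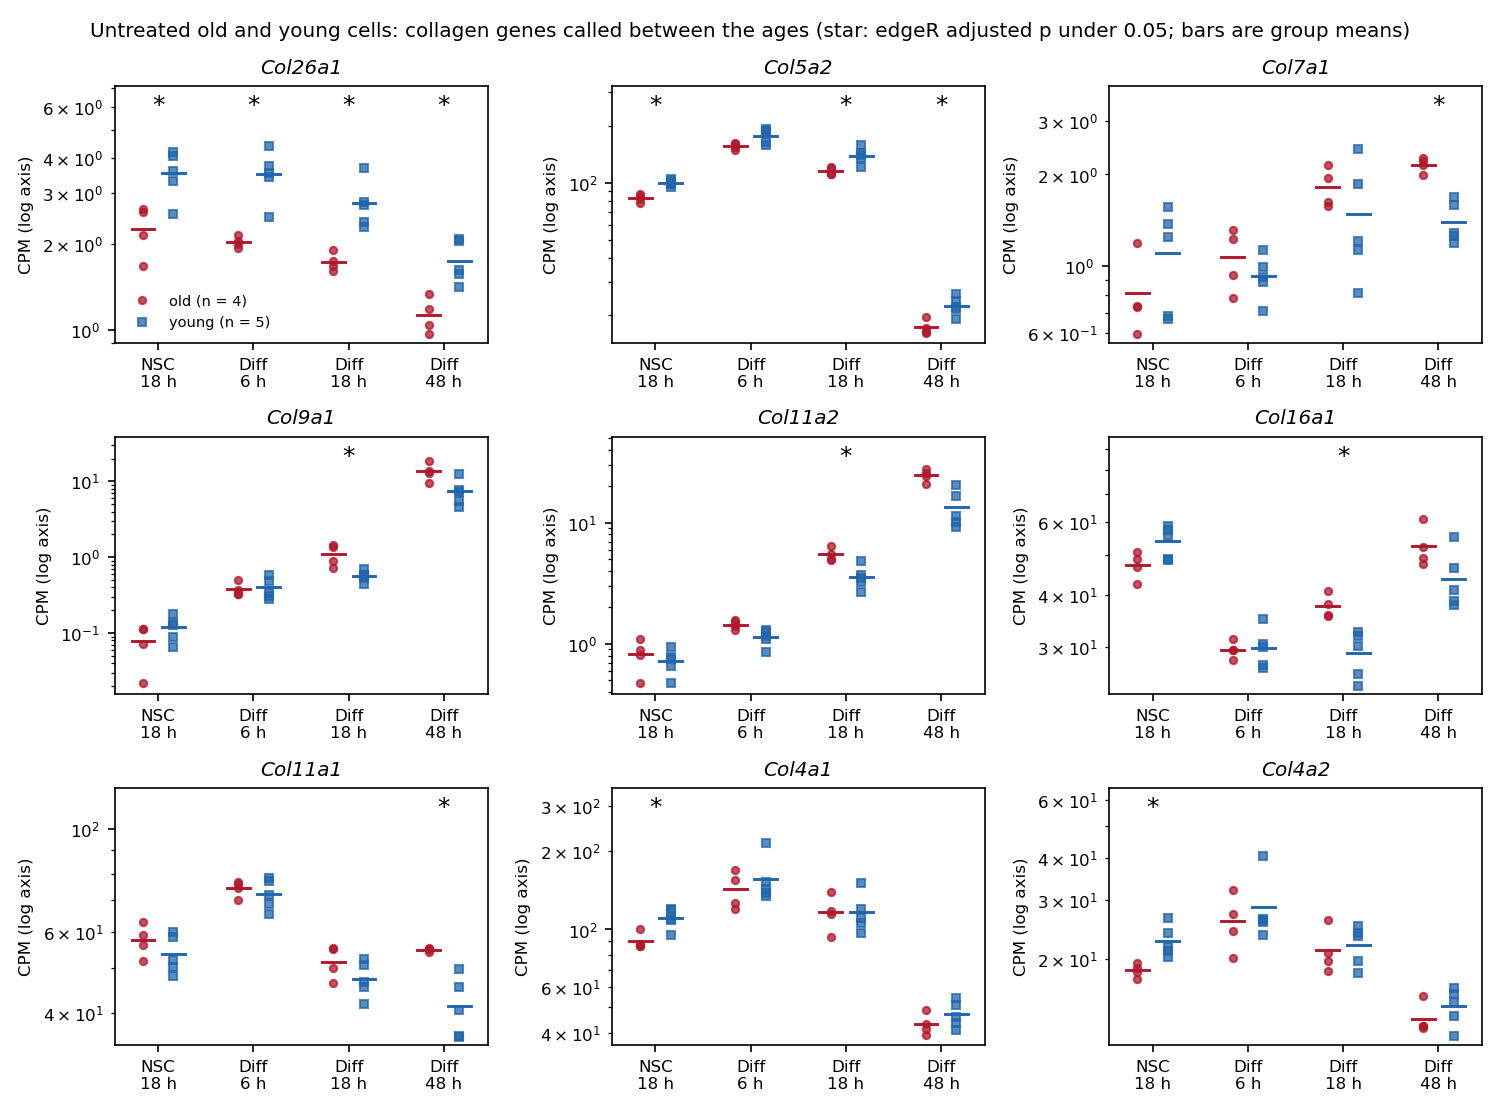
CPM on a log axis of the 9 collagen genes called between old (circles, left) and young (squares, right) untreated cells at any point; horizontal bars are group means and stars mark an adjusted p under 0.05. Col26a1 is lower in old cells at all 4 points.

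Whether changes differed between the ages was tested directly. For 18 h of differentiation against 18 h in NSC medium, Col16a1 fell less in old cells, by a difference of 0.58 ± 0.12 between the log2 changes (adjusted p = 0.0341, where 0.818% of all genes passed), and it changed by -0.30 ± 0.061 in old and -0.85 ± 0.092 in young cells. With animals as blocks Col12a1 passed too, with a difference of 0.58 ± 0.11 (adjusted p = 0.0313, 0.987% of all genes passed). For 48 h against 18 h of differentiation no collagen passed with edgeR, with animals as blocks or with DESeq2, and 2, 3 and 3 of 34, 34 and 22 had an unadjusted p under 0.05 in these fits. Of all genes, 0%, 0.334% and 0.389% passed in these fits, and 6.92%, 11.04% and 10.4% had an unadjusted p under 0.05.

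Among processing genes, few differed with age. At 18 h in NSC medium the called ones with a mean of at least 5 CPM at either age were all lower in old cells. They were the chaperone Fkbp10, the crosslinking peroxidase Pxdn, the basement membrane protein Nid2 and the TGF-beta receptor Tgfbr2. Fkbp10 averaged 3.91 CPM in old cells and 8.03 CPM in young cells, and Tgfbr2 27.8 CPM in old cells and 41.2 CPM in young cells. Over all genes 5.95% passed at that point. P3h4, Fkbp10 and Nid2 were the called ones of at least 5 CPM at 6 h of differentiation, where 1.43% of all genes passed, and all were lower in old cells. At 18 h of differentiation (5.19% of all genes passed) 2 of 10 folding genes and 1 of 7 crosslinking genes were lower in old cells. Of the other lists, 4 of 11 breakdown genes differed, 1 higher and 3 lower, and 1 of 11 receptors and 1 of 11 genes of transcription and signals were higher. At 48 h (10.6%) 2 of 7 crosslinking genes and 1 of 10 receptors, Adgrg1, were lower, and 3 of 11 breakdown genes differed, with Mmp16 higher and Timp3 lower among them.

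Doxycycline was compared with no treatment at equal medium, hour and age. In the fit without animals, no collagen passed in any of the 5 comparisons with edgeR, nor did any with DESeq2. At an unadjusted p under 0.05 there were 3 in old cells and 2 in young cells at 18 h in NSC medium, and 3, 0 and 2 in old cells at 6, 18 and 48 h of differentiation. Of all tested genes, 0.018%, 0.0361%, 0.0294%, 0.0118% and 0.0296% passed in these 5 comparisons, and 8.80%, 14.5%, 8.85%, 6.69% and 8.83% had an unadjusted p under 0.05. The libraries with and without doxycycline came from the same animals, and with animals as blocks more genes passed.

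With animals as blocks, 11 of 34 tested collagens were higher and 1 lower with doxycycline at 18 h in NSC medium in old cells, where 11.2% of all tested genes passed, 4.18% as higher and 7.01% as lower. In young cells 10 of 35 were higher and none lower, where 13.6% of all genes passed, 6.85% as higher and 6.74% as lower. In old cells at 6 h of differentiation 7 of 33 were higher and none lower (3.67% of all genes passed, 1.69% higher). At 18 h none of the collagens passed (0.883%), and at 48 h 1 was lower (4.15%, 2.02% lower). Leaving out an animal at a time gave 8 to 14, 6 to 10, 3 to 5, 0 to 1 and 0 to 2 calls in the 5 comparisons. The rises were small, with blocked log2 fold changes between 0.096 for Col5a3 in old and 0.58 for Col8a1 in young cells.

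Col18a1 was higher with doxycycline in all animals in NSC medium and at 6 h of differentiation. At 18 h in NSC medium it had 216, 168, 217 and 198 CPM with doxycycline and 191, 133, 181 and 168 CPM without it in old cells, and 162, 185, 198, 171 and 215 CPM with doxycycline and 148, 165, 172, 155 and 187 CPM without it in young cells. The groups overlapped, while the log2 ratios within animals were 0.18, 0.33, 0.26 and 0.24 in old and 0.12, 0.17, 0.20, 0.14 and 0.20 in young cells (blocked 0.26 ± 0.024, adjusted p = 5.4e-08 and 0.17 ± 0.027, adjusted p = 6.6e-04). At 6 h of differentiation in old cells the ratios were 0.28, 0.28, 0.34 and 0.33 (blocked 0.31 ± 0.029, adjusted p = 1.7e-05). These calls held without each animal in turn. At 18 and 48 h of differentiation the blocked log2 fold changes were 0.097 ± 0.055 and 0.068 ± 0.077, which did not pass.

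Genes of other classes rose as well. Col6a3 had log2 ratios within animals of 0.36, 0.38, 0.40 and 0.30 in old (0.37 ± 0.063, adjusted p = 2.2e-04) and 0.082, 0.71, 0.61, 0.47 and 0.27 in young cells (0.42 ± 0.083, adjusted p = 0.00371) in NSC medium. Col4a5 was higher in all animals, with 0.23 ± 0.027, adjusted p = 1.2e-05 in old and 0.14 ± 0.032, adjusted p = 0.00774 in young cells, and so was Col5a1, with 0.18 ± 0.027, adjusted p = 4.6e-05 and 0.17 ± 0.034, adjusted p = 0.00315. Col4a1 reached 0.14 ± 0.024, adjusted p = 3.5e-04 in old and 0.15 ± 0.034, adjusted p = 0.00815 in young cells and 0.19 ± 0.029, adjusted p = 0.00150 at 6 h of differentiation in old cells. Col11a1 had 0.16 ± 0.029 and 0.17 ± 0.032, and Col4a6 0.20 ± 0.044 and 0.11 ± 0.034, all of which passed. The Col4a6 call was lost without old replicate 2 (0.14 to 0.26), and in young cells without replicate 1, 2, 3 or 4 (0.094 to 0.12), and the Col4a1 call in young cells without replicate 3 (0.13 to 0.19). Col8a1 in young cells had log2 ratios of 0.71, 0.91, 0.35, 0.54 and 0.51 at levels of 1.61, 1.20, 2.22, 0.608 and 2.16 CPM with doxycycline and 0.988, 0.636, 1.75, 0.419 and 1.52 CPM without it (0.58 ± 0.13, adjusted p = 0.00794). At 6 h of differentiation Col28a1 had log2 ratios of 0.43, 0.42, 0.33 and 0.28 in old cells (0.37 ± 0.050, adjusted p = 4.7e-04).

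**Figure D5:**
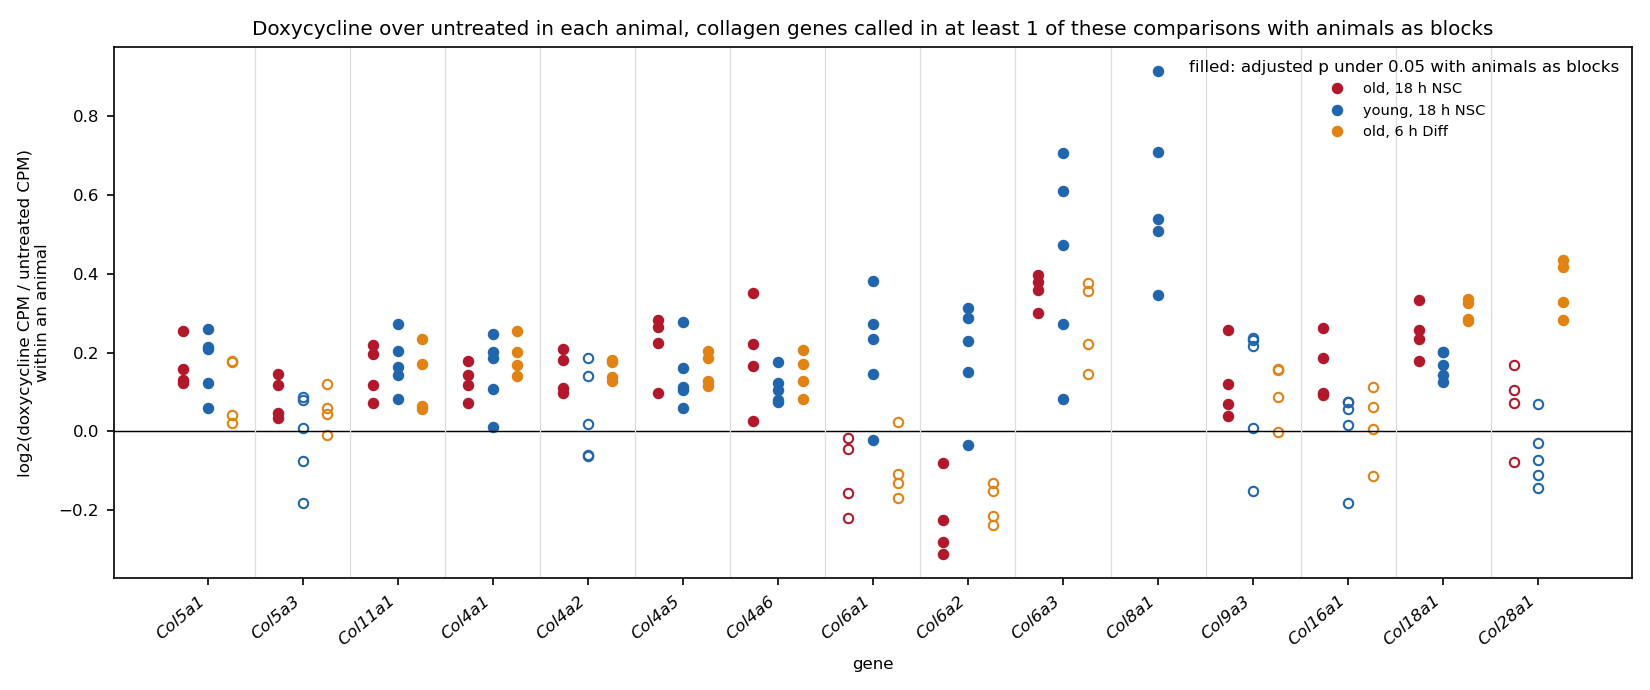
Log2 ratio of CPM with doxycycline to CPM without it within each animal, for collagen genes called with animals as blocks in at least 1 of the 3 comparisons shown; filled points mark a call and open points none, and columns for each gene are old cells at 18 h in NSC medium, young cells at 18 h in NSC medium and old cells at 6 h of differentiation. Col18a1 lies above 0 in every animal, and Col6a2 lies below 0 in old cells.

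Col6a2 went in opposite directions at the 2 ages in NSC medium. It had log2 ratios of -0.23, -0.081, -0.28 and -0.31 in old cells (blocked -0.22 ± 0.041, adjusted p = 6.7e-04) and 0.15, 0.29, 0.23, 0.31 and -0.035 in young cells (0.18 ± 0.047, adjusted p = 0.0174), and the young call was lost without replicate 2, 3 or 4 (0.15 to 0.24). The difference between the ages was -0.40 ± 0.069 with animals as blocks (adjusted p = 0.00816, where 3.43% of all genes passed), and that of Col6a1 was -0.30 ± 0.071 (adjusted p = 0.0392). Without blocks neither passed (adjusted p = 0.834 and 0.82), so both calls were made only with the pairing. Whether the response differed between media at 18 h in old cells was tested as well, and no collagen passed with edgeR, with animals as blocks or with DESeq2, where 3, 10 and 4 of 39, 39 and 25 had an unadjusted p under 0.05. Of all genes, 0.00566%, 0.102% and 0.852% passed in these fits, and 10.01%, 13.3% and 14.4% had an unadjusted p under 0.05. At 48 h of differentiation Col16a1 was lower with doxycycline, with log2 ratios of -0.20, -0.53, -0.15 and -0.30 (blocked -0.31 ± 0.061, adjusted p = 0.0262), and this call was lost without replicate 4 (-0.36 to -0.22 over the 4 fits).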

How the data were processed

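Poly(A) RNA was sequenced from 65 libraries of primary neural stem cells. The authors deposited whole-number counts per Ensembl gene, made against the mm10 build. Tools named in the submitters' processing notes are STAR 2.7.10b, Trim Galore 0.6.6, Subread, SAMtools and, in version 1.40.1, DESeq2. The labels give an Illumina Stranded mRNA kit and 3 pooled lanes. Whether counting used strand is not given in the sources used here, so genes that overlap an exon of another gene on the opposite strand (Col9a3, Col6a4, Col4a1, Col4a2, Col10a1, Col15a1 and Col22a1) are uncertain in those bases, which are 6.07% of the exon bases of Col9a3, 1.90% of those of Col6a4 and under 1% for the others. A transformed table that the authors also deposited was not used. Totals ran from 56483730 to 116835539 counts. Of 31057 features, 31011 matched a GENCODE gene.

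From the deposited counts, CPM were computed with TMM factors over the 65 libraries, and divided by gene length for RPKM. Each comparison was fitted on its own groups with edgeR 4.0.16 (R 4.3.3; TMM, a filterByExpr threshold of 10 counts, quasi-likelihood test with robust dispersion), with Benjamini-Hochberg adjustment over all genes tested and a call at an adjusted p under 0.05. Without blocks, a p-value measures the spread between animals within groups, and paired libraries are treated as independent. With animals as blocks, it measures the spread of the differences within animals. Alternatives were DESeq2 1.42.0, RLE factors, no filter, each replicate left out, the animal as a block, and sex as a covariate between ages. The fit was tested on simulated data first.

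Within an age the replicate number names 1 animal, so groups of the same age are paired. Over 10426 genes of at least 10 CPM and 18 paired comparisons, deviations of libraries of the same animal correlated with medians of 0.558 to 0.834 and a lowest pair of 0.252. Those of different animals correlated with medians of at most -0.234, and single pairs of them reached 0.670. Deviations were taken from group means, which by itself makes those of different animals correlate negatively on average, so the negative medians do not bear on the pairing. The fit without the block is the one reported unless the block changes a call.

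Members were the 43 collagen symbols. Any member could be named. Values per library were given mainly for members that reached a group mean of 5 CPM and were called. Of the lists for collagen processing only called genes were named, by fold change, apart from Bmp1, given beside Adamts14. The members and lists were chosen with earlier results of these data known. Doxycycline comparisons share untreated libraries with the comparisons of medium, time and age, and their values are given side by side only.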

Additional observations from a re-analysis of the deposited data

Results flagged for a closer look

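Among 251 group levels of at least 5 CPM, 15 had 1 library far from the others of its group by Dixon's rule, which chance alone gives in about 1 of 20 groups. Young replicate 5 was the high library in 6 of them. Its Col6a1 stood at 72.2 CPM at 18 h in NSC medium and 49.2 CPM at 6 h of differentiation without treatment, its Col6a2 at 23.1 CPM at 6 h, its Col6a3 at 13.1 CPM under doxycycline and 10.8 CPM untreated, both in NSC medium, and its Col4a6 at 18.1 CPM at 18 h of differentiation. The same animal had the highest Acta2, in NSC medium, of 73.3 CPM under doxycycline and 82.4 CPM untreated, and the lowest Fbln1, a fibroblast marker, of 14.7 CPM under doxycycline and 16.6 CPM untreated. Young replicate 4 was high at 6 h of differentiation with 215.1 CPM of Col4a1 and 40.7 CPM of Col4a2.

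The other levels were spread over animals. In old untreated cells Col5a3 was low at 84.9 CPM (6 h of differentiation, replicate 4), Col27a1 low at 4.36 CPM (NSC medium, replicate 2) and at 21.5 CPM (18 h, replicate 1), Col4a1 high at 100.3 CPM (NSC medium, replicate 4) and Col4a2 high at 15.4 CPM (48 h, replicate 2). In young untreated cells Col27a1 was high at 31.0 CPM (18 h, replicate 3) and Col9a3 low at 57.1 CPM (6 h, replicate 3).

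Changes that differed between the ages by a test of the difference were those of Col16a1 with medium (0.58 without blocks and 0.58 with animals as blocks, old minus young, log2), of Col12a1 with medium (0.58 with blocks), and of Col6a2 and Col6a1 with doxycycline (-0.40 and -0.30 with blocks).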

How the results depend on the processing

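Across 2236 refits of single collagen genes that had passed, 2115 kept their direction and their call, 121 kept their direction only and none reversed. Of the 121, 108 came from leaving out 1 replicate. Counts of calls moved by more than 1.5 times in few cases, apart from age with 1 library left out. There they moved in 6, 3, 5 and 7 of 9 fits (NSC medium, then 6, 18 and 48 h of differentiation). With DESeq2, 2 collagens passed for age at 6 h of differentiation, and with sex as a covariate 3 passed for age at 18 h of differentiation. With the replicate block, which pairs libraries of the same animal, 12 collagens passed for doxycycline in old and 10 in young NSC medium, 7 at 6 h and 1 at 48 h of differentiation, 2 for the difference in medium response between ages and 2 for the difference in doxycycline response. The block changed other calls only of single genes. Leaving out 1 replicate gave 1 to 3, 0 to 2, 0 to 6 and 1 to 8 calls for age (NSC medium, then 6, 18 and 48 h of differentiation), and 0 to 1 for doxycycline in young cells, where the 1 call appeared without replicate 5. With the block it gave 8 to 14 calls for doxycycline in old and 6 to 10 in young NSC medium, and 3 to 5, 0 to 1 and 0 to 2 at 6, 18 and 48 h of differentiation. The cause was not tested, beyond the fewer samples in each such fit. RPKM ranks moved by at most 4 places with the longest transcript as length. With 4 or 5 animals a group and levels under 1 CPM for 13 genes, small changes of low collagens were not detectable at this depth.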
